A study of Mus musculus with 12 samples.

Results

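The genes described here are 41 mouse genes of the hypoxia response and of glycolysis, taken by symbol from the 50559 rows of the deposited gene count table, and all 41 were found. They comprised 3 subunits of the hypoxia-inducible factors (HIFs), 3 genes of oxygen sensing and HIF turnover, 22 genes of glucose uptake, glycolysis and lactate export, and 13 HIF targets outside glycolysis. RNA came from retinas of C57BL/6J mice on day 28, in 4 groups of 3 libraries. All mice had received a single 30 µg subcutaneous dose of antibody on day 1, which was either control IgG or APB5, a monoclonal antibody to PDGFRβ that prevents pericytes from being recruited to growing vessels. The IgG+Mino and APB5+Mino groups were in addition given minocycline, a tetracycline antibiotic that dampens microglial activation, every day from day 5 to day 27 at 45 mg/kg, whereas the IgG and APB5 groups were not. The antibody was given systemically and only to neonates, so the retinas describe a late state after an early block, and the tissue was whole retina. The libraries of a group came from different mice, so p-values measure the spread between animals.

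When oxygen is plentiful, HIF-1α and HIF-2α (Hif1a and Epas1) are hydroxylated by prolyl hydroxylases (Egln1 and Egln3) and handed to degradation by the VHL protein. When oxygen falls, they persist, pair with ARNT and switch on genes for glucose transport, glycolysis, mitochondrial turnover and vascular signaling, several of which (Egln3, Adm, Bnip3) are used as transcript readouts of the pathway. The retina is a special case, since photoreceptors convert most of their glucose to lactate even in ample oxygen, and their glycolytic enzymes are abundant without any hypoxia. HIF activity is set mainly at the protein level, which was not measured here.

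Total counts ranged from 52740545 to 59411044 per library, with 26897 to 28479 genes detected. Levels are given in CPM, read counts relative to library size after TMM scaling over all 12 libraries. APB5 replicate 3 stood apart. Its summed level of 8 rod markers was 12495 CPM, against 47496 to 70045 CPM in the other 11 libraries, whereas its 4 astrocyte and gliosis markers summed to 1707 CPM (at most 347 elsewhere), its 8 microglia and macrophage markers to 357 CPM (at most 54.8), its 6 pericyte and smooth muscle markers to 460 CPM (at most 124) and its 5 pigment epithelium markers to 603 CPM (at most 177). In whole tissue, fewer cells of a type and less RNA per cell cannot be told apart. Xist, transcribed in female cells, was at 816 to 2667 CPM in 5 libraries (all of IgG and replicate 3 of both APB5 and APB5+Mino) and at 0.0904 to 0.679 CPM in the other 7, so that the sexes were unevenly spread over the groups.

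**Figure D1:**
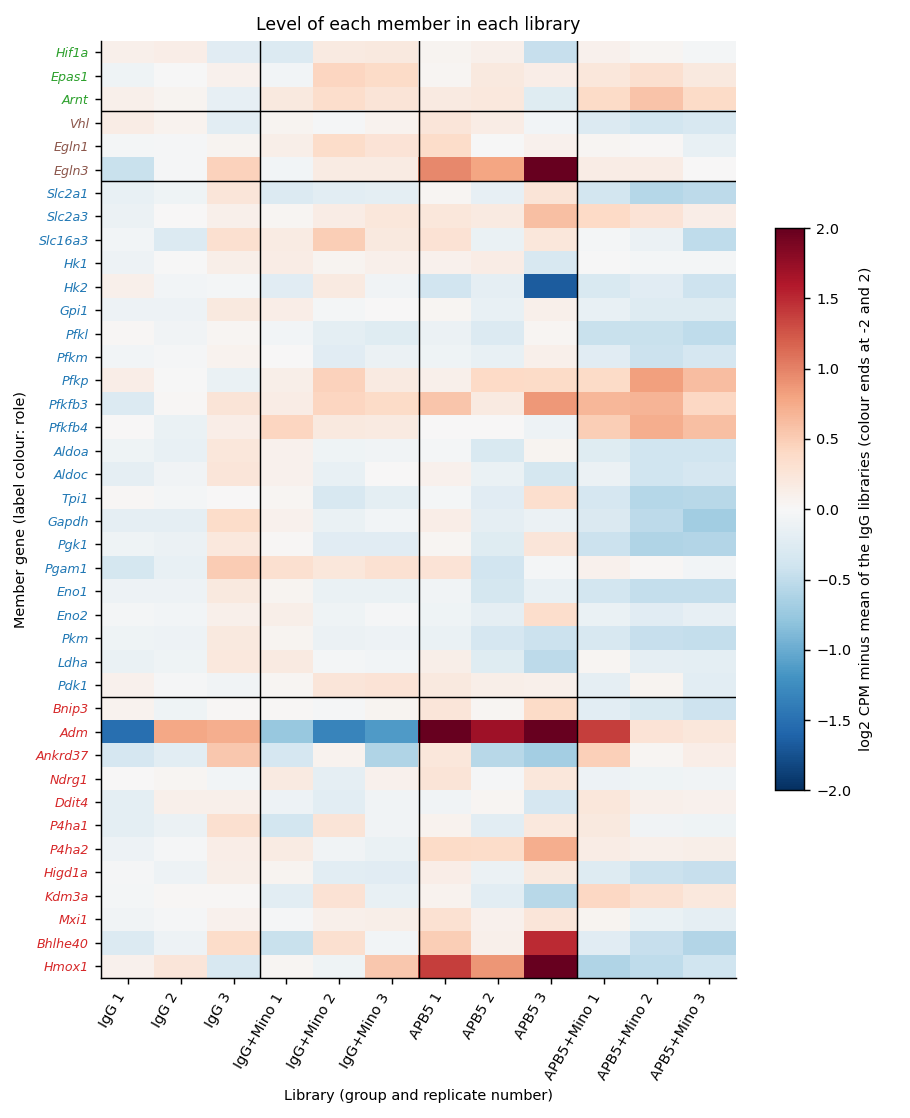
Level of the 40 members that passed the count filter (rows, label colour by role) in each of the 12 libraries (columns), as log2 CPM minus the mean of the 3 IgG libraries, with colour ending at -2 and 2. APB5 replicate 3 has the highest values of Adm, Hmox1, Egln3 and Bhlhe40 and the lowest of Hk2, and most glycolytic rows are below the IgG mean in the 3 APB5+Mino libraries.

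In control retinas the glycolytic enzymes were by far the most abundant members. Levels of different genes are compared per kilobase of the canonical transcript (GENCODE vM39, GRCm39). Aldoa, the aldolase that splits fructose 1,6-bisphosphate, was the highest at 1344 ± 191 CPM per kb (SD, n = 3 IgG libraries), followed by Pkm, pyruvate kinase, at 1244 ± 147, and these neighbours did not differ beyond their spread. Eno1, an enolase, followed at 790 ± 92.9 CPM per kb, Ldha, which makes lactate from pyruvate, at 601 ± 78.1 and Tpi1, triose phosphate isomerase, at 485 ± 12.3. Together the 22 glycolytic members took 1.33% to 1.52% of all counts in the IgG libraries and the 13 non-glycolytic targets 0.0924% to 0.0941%. Hif1a stood at 77.8 ± 10.04 CPM per kb, above its paralog Epas1 at 28.7 ± 1.76 and their partner Arnt at 12.7 ± 1.20. The lowest members were Hmox1, heme oxygenase 1, at 4.34 ± 0.833 CPM per kb, Pfkfb4, which sets fructose 2,6-bisphosphate, at 3.81 ± 0.346, Egln3 at 1.32 ± 0.418, Adm, which encodes the vasoactive peptide adrenomedullin, at 0.328 ± 0.219, and Car9, a carbonic anhydrase. Car9, a textbook marker of tissue hypoxia, had 0 to 15 counts per library, did not pass the count filter and was not tested.

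Many of the abundant enzymes have near-identical copies in the mouse genome, which limits what a count of short reads says about them. For 11 of the 41 members, over 10% of all 50-base windows of the canonical transcript recurred outside the gene in GRCm39. They were Pgam1 (93.6%), Pgk1 (92.9%), Gapdh (85.6%), Bnip3 (65.9%), Eno1 (63.6%), Pkm (40.2%), Ldha (33.8%), Gpi1 (24.5%), Tpi1 (23.6%), Aldoa (15.2%) and Higd1a (14.3%). In the other 30 the share was at most 2.22%, among them the abundant enzymes Eno2, Hk1, Aldoc and Pfkp. Gapdh, usually among the most abundant transcripts of any tissue, was listed at only 40.9 ± 9.35 CPM per kb in IgG, and the copies Pgam1-ps2 and Pgk1-rs7 held 46.5% to 58.7% of the summed counts of Pgam1 and its copy and 23.5% to 31.9% of those of Pgk1 and its copy. Values of these 11 genes are therefore uncertain, and how the authors' pipeline split such reads is not given in the sources used here.

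The first comparison asked what early blockade of PDGFRβ left in the retina on day 28. APB5-treated retinas showed higher levels of a small group of non-glycolytic HIF targets and of Egln3, Pfkfb3 and Slc2a3, each highest in APB5 replicate 3. The median of the glycolytic members was close to 0, and no member passed the test. With edgeR 0 of 40 members were called, as were 0% of the 20350 genes tested. An unadjusted p below 0.05 was reached by 6 members, all of them higher in APB5, beside 1063 genes higher and 409 lower of the 20350 tested. The 6 members included the glycolytic members Pfkfb3 (log2 fold change 0.55, with overlapping groups) and Slc2a3 (0.35). Bhlhe40, a non-glycolytic target, was at 0.80 with an unadjusted p of 0.0597. DESeq2 called 2 of the members, Hmox1 (adjusted p = 0.0128) and Adm (adjusted p = 0.0203), beside 0.485% of the 20225 genes to which it gave an adjusted p. The APB5 and IgG libraries did not overlap for 9 of 40 members, 7 higher and 2 lower, against 15.6% of all genes tested. The median log2 fold change was -0.017 over the 22 glycolytic members and 0.19 over the 12 non-glycolytic targets tested, beside -0.0024 over all genes.

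Hmox1, on chromosome 8 (75820241 to 75827217, GRCm39), degrades heme and is induced by oxidative stress and in phagocytes as well as by HIFs. It stood at 7.17, 7.95 and 5.39 CPM in the IgG libraries and at 17.6, 12.4 and 53.3 CPM in the APB5 libraries. All APB5 values lay above all IgG values, and replicate 3 lay far above the other two. The log2 fold change was 2.02 ± 0.53 (SE, n = 3 libraries per group, adjusted p = 0.664), and it was 1.13 without APB5 replicate 3 (adjusted p = 0.312).

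Adm, on chromosome 7 (110226858 to 110229027), had 6, 37 and 36 counts in IgG, or 0.105, 0.650 and 0.622 CPM. In APB5 it had 104, 69 and 619 counts, or 1.88, 1.26 and 9.42 CPM. The groups did not overlap, and replicate 3 again carried most of the APB5 signal. Its log2 fold change of 3.11 ± 0.94 was the widest of any member (adjusted p = 0.664) and became 1.70 without that library (adjusted p = 0.792).

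Egln3, the prolyl hydroxylase most strongly induced by HIFs, on chromosome 12 (54225767 to 54250673), was at 2.51, 3.37 and 4.73 CPM in IgG and at 6.67, 5.93 and 28.4 CPM in APB5. Again no values overlapped. The log2 fold change was 1.95 ± 0.63 (adjusted p = 0.664), and 0.83 without APB5 replicate 3 (adjusted p = 0.767). P4ha2, a collagen prolyl hydroxylase on chromosome 11 (53981553 to 54022494), was at 12.5, 13.2 and 14.6 CPM in IgG and at 17.5, 17.4 and 22.2 CPM in APB5. This was the most even of the 4 shifts, at 0.51 ± 0.16 (adjusted p = 0.664) and 0.38 without replicate 3 (adjusted p = 0.847). The summed markers of gliosis, microglia, pericytes and pigment epithelium given above were also highest in APB5 replicate 3. Single markers could differ, with P2ry12 at 1.70 CPM there and 2.64 CPM in IgG replicate 3, and Kcnj8 at 3.09 and 3.94 CPM. The part of these markers in the members' values was not tested. When all 12 libraries were fitted together with the Xist level (log2 CPM) as covariate, Hmox1, Adm, Egln3 and P4ha2 were called higher and Hk2 lower, 5 of 40 members beside 6.98% of the 21228 genes tested. Without the covariate the same fit called 0 members, beside 0.033% of genes. Within groups, Xist split into high and low only in APB5 and APB5+Mino, by replicate 3 of each. This fit therefore cannot separate Xist from whatever else set APB5 replicate 3 apart.

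**Figure D2:**
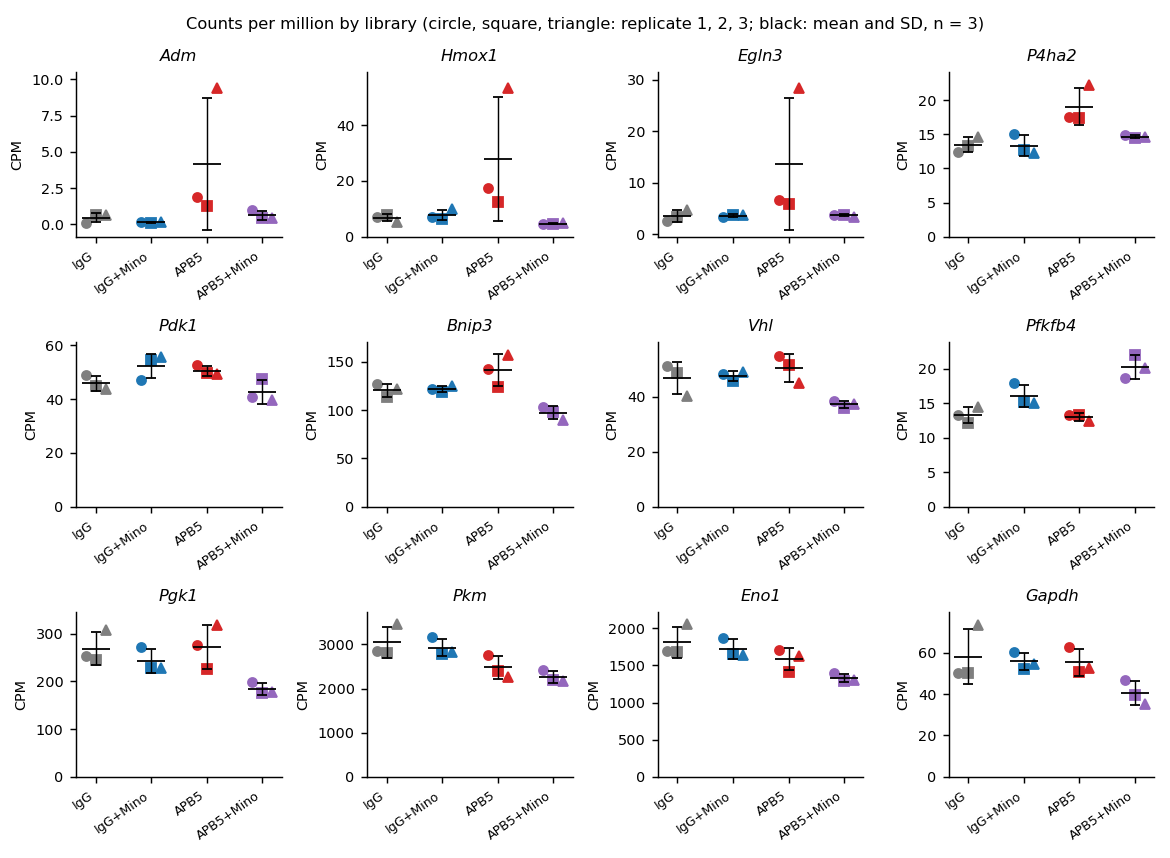
CPM of 12 members in each library (circle, square and triangle for replicates 1, 2 and 3; black bars, mean and SD, n = 3). Adm, Hmox1 and Egln3 are highest in APB5 replicate 3, Pfkfb4 is highest in APB5+Mino, and Vhl, Pgk1, Pkm, Eno1 and Gapdh have their lowest group mean in APB5+Mino.

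The other 3 members whose APB5 libraries all lay above the IgG libraries were Slc2a3, the neuronal glucose transporter (log2 fold change 0.35 ± 0.15), Pdk1, a kinase that keeps pyruvate out of the mitochondrion (0.14 ± 0.12), and Mxi1, a MYC antagonist (0.21 ± 0.12). The 2 members lying below were Hk2, the inducible hexokinase, and Pkm. Hk2 was at 439, 391 and 396 CPM in IgG and at 313, 362 and 129 CPM in APB5, its lowest value being in the library with the lowest rod markers. Slc2a1, the glucose transporter of the blood-retina barrier, was at 264 ± 38.9 CPM in IgG and 272 ± 38.8 CPM in APB5, and Ldha at 955 ± 124 and 831 ± 183 CPM, both within the spread. The 3 HIF subunits had log2 fold changes from -0.087 to 0.13, with adjusted p from 0.780 to 0.918.

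The promoters of Adm, Egln3, P4ha2, Bnip3 and Pfkfb4 are shown. These genes have a listed promoter and are among the 4 members with the smallest p in the comparison just described or in the next one. Vhl meets the same terms, but its sequence is not shown. Hmox1, first by p in the former, has no listed promoter. The sequences are RefSeq's for GRCm38.p6, from 250 bases before to 50 bases after the start of transcription, 5′ to 3′ on the gene's strand, with capitals for the HIF motif core written as ACGTG or GCGTG or as its reverse complement (CACGT or CACGC). Overlapping matches run together. Adm lies at chr7:110627407-110627706 (plus strand), Egln3 at chr12:54203825-54204124 (minus strand), P4ha2 at chr11:54100674-54100973 (plus strand), Bnip3 at chr7:138909457-138909756 (minus strand) and Pfkfb4 at chr9:108991652-108991951 (plus strand).
Adm: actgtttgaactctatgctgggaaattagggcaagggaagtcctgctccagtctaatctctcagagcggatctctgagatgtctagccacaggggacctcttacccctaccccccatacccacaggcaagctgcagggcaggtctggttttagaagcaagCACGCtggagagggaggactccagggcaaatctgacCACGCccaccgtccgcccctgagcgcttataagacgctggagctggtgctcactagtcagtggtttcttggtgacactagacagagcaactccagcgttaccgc
Egln3: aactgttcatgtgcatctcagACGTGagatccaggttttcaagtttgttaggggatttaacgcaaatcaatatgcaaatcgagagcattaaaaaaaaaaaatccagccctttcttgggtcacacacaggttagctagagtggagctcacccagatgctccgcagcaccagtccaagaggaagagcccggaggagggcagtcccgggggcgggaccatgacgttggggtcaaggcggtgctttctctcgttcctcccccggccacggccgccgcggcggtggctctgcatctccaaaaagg
P4ha2: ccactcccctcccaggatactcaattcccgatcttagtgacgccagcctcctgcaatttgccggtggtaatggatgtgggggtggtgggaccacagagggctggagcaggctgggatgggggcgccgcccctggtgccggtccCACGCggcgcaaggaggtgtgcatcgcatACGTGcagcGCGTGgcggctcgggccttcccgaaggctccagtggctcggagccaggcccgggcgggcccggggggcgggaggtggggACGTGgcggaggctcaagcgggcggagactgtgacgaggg
Bnip3: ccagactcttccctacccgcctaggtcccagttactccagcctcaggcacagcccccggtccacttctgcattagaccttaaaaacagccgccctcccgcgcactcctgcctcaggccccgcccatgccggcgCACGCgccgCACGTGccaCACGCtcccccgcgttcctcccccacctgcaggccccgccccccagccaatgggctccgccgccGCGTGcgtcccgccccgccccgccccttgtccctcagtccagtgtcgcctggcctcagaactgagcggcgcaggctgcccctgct
Pfkfb4: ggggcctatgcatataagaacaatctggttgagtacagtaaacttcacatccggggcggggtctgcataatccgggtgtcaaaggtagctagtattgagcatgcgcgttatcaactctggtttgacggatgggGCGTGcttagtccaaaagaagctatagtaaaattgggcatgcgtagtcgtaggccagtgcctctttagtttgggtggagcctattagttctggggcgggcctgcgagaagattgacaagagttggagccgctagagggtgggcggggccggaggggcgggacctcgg
Bnip3 held 2 matches to ACGTG, which overlap in a single CACGTG read on both strands, and 3 to GCGTG. P4ha2 held 2 and 2, at separate places, Adm 0 and 2, Egln3 1 and 0, and Pfkfb4 0 and 1. Of the 36 members with a listed promoter, 28 held at least 1 match in the first one listed (77.8%), against 43.8% of 32851 promoters of the same length. By role it was 15 of 21 glycolytic members (71.4%) and 9 of 10 non-glycolytic targets (90.0%). A match describes the letters and not a bound site. The promoter of Vhl, left out of the sequences above, held none, so every printed promoter holds a match. Epas1, Slc2a3, Ndrg1, Bhlhe40 and Hmox1 are named without a sequence.

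The second comparison asked what daily minocycline changed in retinas of APB5-treated mice. Calls were made for 2 of 40 members, which is near the share of 4.82% over the 20281 genes tested. Hmox1 fell and Pfkfb4 rose, and only the fall of Hmox1 exceeded a log2 fold change of 1. Most other members leaned lower without passing the test. Groups did not overlap for 23 of 40 members, 4 higher and 19 lower, against 46.5% of all genes tested. The median was -0.23 over the glycolytic members and -0.34 over the non-glycolytic targets, beside -0.020 over all genes, and 28 of the 40 values were negative. Libraries of equal replicate number correlated best in this comparison and were taken as pairs, although the labels give these numbers no meaning. With the replicate number as a block 0 members were called, as were 0% of all genes. DESeq2 called 14 members, beside 27% of 18983 genes. Without APB5 replicate 3 edgeR called 14 as well, 12 of them lower, beside 26.6% of 20621 genes, and without APB5 replicate 2 it called 9, beside 20.1% of 20832 genes. Without APB5 replicate 1 or any 1 of the APB5+Mino libraries it called 0 members, and at most 1 gene in all.

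Hmox1 dropped to 4.45, 4.72 and 5.10 CPM in APB5+Mino, from 17.6, 12.4 and 53.3 CPM in APB5. The 3 treated values lay close together and below every APB5 library. Its log2 fold change was -2.54 ± 0.54 (adjusted p = 0.0494), with an adjusted p of 0.0641 under the replicate block. Without APB5 replicate 3 it was -1.65 (adjusted p = 0.000823). The call was lost when APB5 replicate 1 (adjusted p = 0.105) or any of the 3 APB5+Mino libraries was left out (adjusted p up to 0.214). The microglia and macrophage markers summed to 45.6 to 357 CPM in APB5 and to 14.5 to 16.8 CPM in APB5+Mino, all 8 of them lower and 1 of them called, and their part in the Hmox1 value was not tested.

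Pfkfb4, on chromosome 9 (108820832 to 108862847), encodes a bifunctional enzyme that tunes glycolytic flux through fructose 2,6-bisphosphate. It was at 13.3, 13.3 and 12.4 CPM in APB5 and at 18.6, 22.0 and 20.1 CPM in APB5+Mino. The groups were well separated, and IgG, at 13.3, 12.1 and 14.5 CPM, lay with APB5. The log2 fold change was 0.63 ± 0.11, a 1.55-fold rise (adjusted p = 0.0461). Under the replicate block the adjusted p was 0.0641, without APB5 replicate 3 it was 0.00668 at 0.60, and it exceeded 0.05 without APB5 replicate 1 or any 1 APB5+Mino library. Its relative Pfkfb3 stood at 38.8 ± 9.08 CPM without minocycline and at 39.6 ± 4.00 CPM with it.

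Bnip3, which directs mitochondria to autophagy, on chromosome 7 (138490690 to 138511253), was at 142, 124 and 157 CPM in APB5 and at 104, 98.1 and 90.2 CPM in APB5+Mino, with no overlap (-0.54 ± 0.12, adjusted p = 0.0503). Vhl, the ubiquitin ligase subunit that removes HIF-α, on chromosome 6 (113600920 to 113608599), was at 54.8, 51.4 and 44.8 CPM in APB5 and at 38.5, 35.8 and 37.2 CPM in APB5+Mino, also with no overlap (-0.44 ± 0.11, adjusted p = 0.0529). Both fell just short of the threshold.

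Several further members stood in the same position, separated between the groups with adjusted p from 0.0572 to 0.0812. Slc2a1 was at 272 ± 38.8 CPM without and 187 ± 14.3 CPM with minocycline (-0.54 ± 0.14), Pgk1, phosphoglycerate kinase, at 273 ± 46.3 and 184 ± 12.3 CPM (-0.57 ± 0.15), and Higd1a, a mitochondrial inner membrane protein, at 64.6 ± 7.34 and 46.9 ± 3.75 CPM (-0.47 ± 0.12). The 6 endothelial markers were all lower in the same comparison and 3 of them were called, Cldn5 at -1.68, Tie1 at -1.50 and Kdr at -0.64, with summed levels of 250 to 301 CPM in APB5 and 177 to 203 CPM in APB5+Mino. Their calls too were lost under the replicate block (adjusted p = 0.0641), and their part in the Slc2a1 value was not tested. The largest differences in size, those of Adm (-2.68 ± 0.84), Egln3 (-1.89 ± 0.61) and Bhlhe40, a transcriptional repressor of the clock and hypoxia responses (-1.24 ± 0.35), came with their highest values in APB5 replicate 3. Kdm3a, a histone demethylase (0.51 ± 0.16), Ddit4, an inhibitor of mTORC1 (0.25 ± 0.12), and Arnt (0.38 ± 0.14) were the other members whose APB5+Mino libraries all lay higher. Ldha (0.08 ± 0.20), Hk1 (-0.02 ± 0.17) and Pgam1 (0.04 ± 0.18) were at like levels in both groups.

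**Figure D3:**
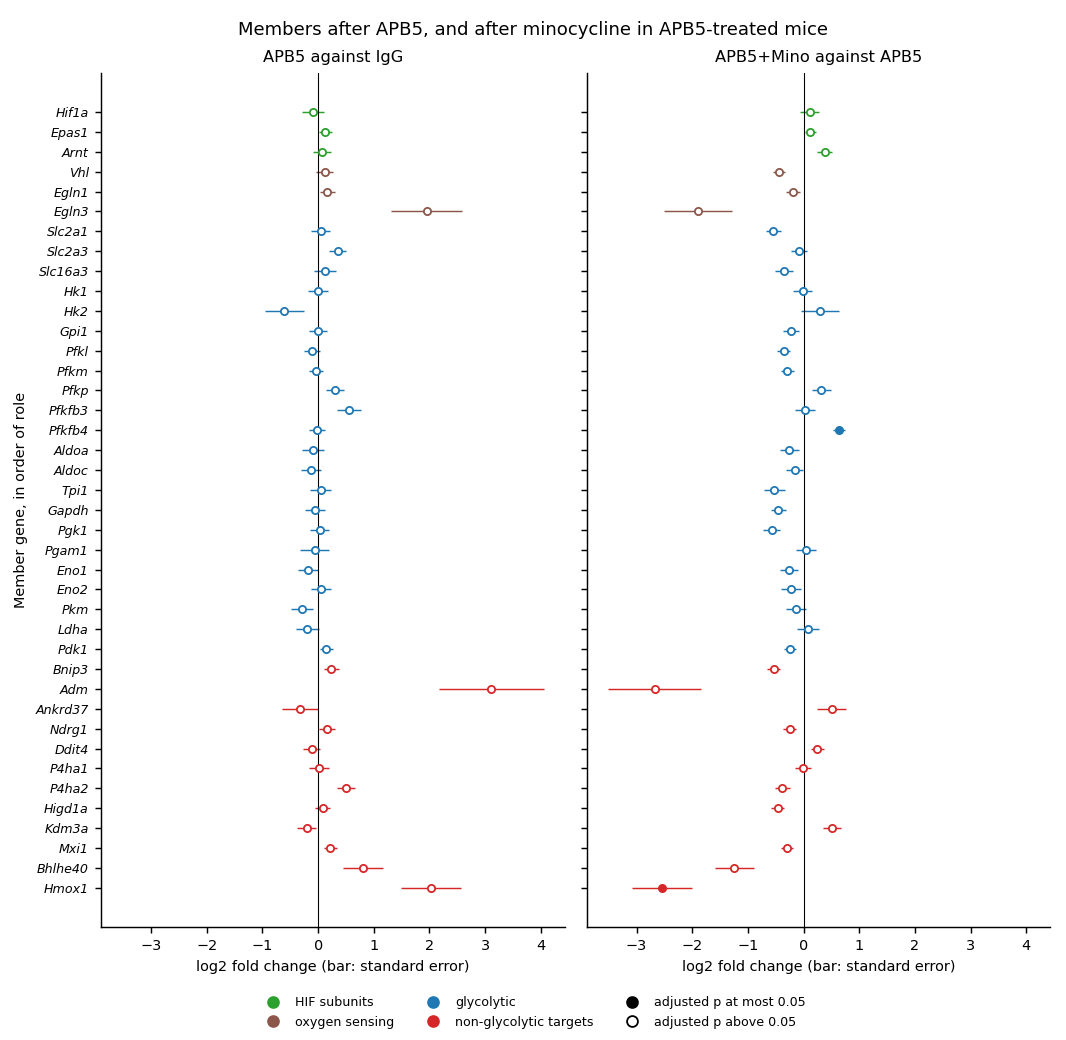
Log2 fold change of each tested member (points; bars, SE; colour, role) in APB5 against IgG (left) and APB5+Mino against APB5 (right), with filled points for adjusted p at most 0.05. The left panel has no filled point, and the right panel has Pfkfb4 at 0.63 and Hmox1 at -2.54. Both comparisons use the same 3 APB5 libraries.

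APB5 against IgG and APB5+Mino against APB5 share the 3 APB5 libraries, so opposite signs in them are not independent. Side by side, Adm had log2 fold changes of 3.11 and -2.68, Hmox1 of 2.02 and -2.54, Egln3 of 1.95 and -1.89, P4ha2 of 0.51 and -0.38 and Bnip3 of 0.23 and -0.54. Restricting the second comparison to replicates 1 and 2 of each group, the libraries with low Xist, gave 5 calls among the members, beside 9.36% of 20302 genes, in a check chosen after seeing the data, with Hmox1 at -1.70 (adjusted p = 0.00689), Vhl, Egln3 and Bhlhe40 lower and Pfkfb4 at 0.61 (adjusted p = 0.0372).

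Minocycline in control mice changed no member by the test. In IgG+Mino against IgG, edgeR called 0 of 40 members, beside 0.0298% of the 20143 genes tested. An unadjusted p below 0.05 was reached by 3 members, beside 1004 genes higher and 682 lower of those tested. DESeq2 also called 0 members, beside 0.273% of 20128 genes. Groups did not overlap for 4 members, against 14.4% of all genes, with Arnt, Egln1 and Pfkfb4 higher and Slc2a1 lower. The median was 0.00073 over glycolytic members, -0.022 over non-glycolytic targets and -0.010 over all genes. All 3 IgG libraries had high Xist and all 3 IgG+Mino libraries low Xist, so sex and minocycline cannot be told apart here.

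The 4 members with the smallest p in this comparison moved little or were scarce. Adm had 11, 7 and 8 counts in IgG+Mino against 6, 37 and 36 in IgG (log2 fold change -1.36 ± 0.64, adjusted p = 0.585), with overlapping groups. Egln1, the main oxygen-sensing prolyl hydroxylase, was at 93.3, 111 and 104 CPM in IgG+Mino and at 84.0, 84.5 and 89.9 CPM in IgG (0.26 ± 0.11, adjusted p = 0.585). Arnt was at 68.5, 76.2 and 71.1 CPM and at 64.1, 62.3 and 53.5 CPM (0.27 ± 0.12, adjusted p = 0.585). These 2 genes were higher in every IgG+Mino library by small margins. Pfkp, a phosphofructokinase, was at 562, 711 and 585 CPM in IgG+Mino and 572, 516 and 474 CPM in IgG, with overlap (0.26 ± 0.13, adjusted p = 0.585).

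The fourth comparison, APB5+Mino against IgG+Mino, asked what the antibody left when both groups had received minocycline, and APB5 replicate 3 has no part in it. Several enzymes of the glycolytic chain were lower after APB5. Of 40 members 9 were called, 8 lower and 1 higher, beside 8.09% of the 20049 genes tested (3.28% lower and 4.8% higher). The 5 glycolytic members that fell were Pfkl, Gapdh, Pgk1, Eno1 and Pkm. Vhl, Bnip3 and Hmox1 fell as well, and Adm alone rose. Groups did not overlap for 23 of 40 members, 4 higher and 19 lower, against 35.1% of all genes. The median was -0.27 over 22 glycolytic members, 18 of them negative, and -0.039 over 12 non-glycolytic targets, 6 of them negative, beside -0.0092 over all genes.

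In order of the chain, Pfkl, the liver-type phosphofructokinase that commits glucose to glycolysis (chromosome 10, 77818084 to 77845922), was at 321, 293 and 283 CPM in IgG+Mino and at 245, 245 and 236 CPM in APB5+Mino. Its log2 fold change was -0.31 ± 0.08 and its adjusted p of 0.04995 was the closest to the threshold. Gapdh, which makes the first high-energy phosphate of the chain (chromosome 6, 125135289 to 125143518), was at 60.5, 52.2 and 54.8 CPM and then 46.8, 39.6 and 35.4 CPM (-0.46 ± 0.12, adjusted p = 0.0458). Pgk1, which harvests that phosphate as ATP (chromosome X, 105230706 to 105247305), was at 273, 229 and 228 CPM and then 198, 177 and 178 CPM (-0.40 ± 0.10, adjusted p = 0.0422). In all 3 genes every APB5+Mino library lay below every IgG+Mino library.

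Eno1, which forms phosphoenolpyruvate (chromosome 4, 150321073 to 150337027), was at 1876, 1649 and 1647 CPM in IgG+Mino and at 1392, 1290 and 1302 CPM in APB5+Mino (-0.38 ± 0.08, adjusted p = 0.0328). Pkm, which turns it into pyruvate (chromosome 9, 59563364 to 59586663), was at 3161, 2790 and 2835 CPM and then 2421, 2202 and 2169 CPM (-0.37 ± 0.08, adjusted p = 0.0345). The drop was thus to 0.768-fold for Eno1 and 0.771-fold for Pkm, with no overlap in either. Of these 5 enzymes, 4 were among the genes with many genomic copies named above, the exception being Pfkl, at 0.346% of windows. The copy Pgk1-rs7 had a log2 fold change of 0.015 (adjusted p = 0.929) in the same comparison, and Pgam1-ps2 one of -0.40 (adjusted p = 0.0217).

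Other steps of the chain had values of like sign that missed the threshold, namely Aldoa at -0.32 ± 0.09 (adjusted p = 0.0513), Slc16a3, the lactate exporter MCT4, at -0.50 ± 0.14 (adjusted p = 0.0561), Pgam1 at -0.27 ± 0.08 (adjusted p = 0.0660), Gpi1, glucose phosphate isomerase, at -0.26 ± 0.08 (adjusted p = 0.0731) and Tpi1 at -0.34 ± 0.11 (adjusted p = 0.0845). The 4 glycolytic members with positive values were Pfkp (0.36 ± 0.13), Pfkfb4 (0.33 ± 0.12), Pfkfb3 (0.26 ± 0.11) and Slc2a3 (0.13 ± 0.10). Their adjusted p ranged from 0.0995 to 0.380. Summed over the 22 glycolytic genes, IgG+Mino libraries held 14612, 13281 and 13347 CPM and APB5+Mino libraries 12095, 11366 and 11162 CPM.

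**Figure D4:**
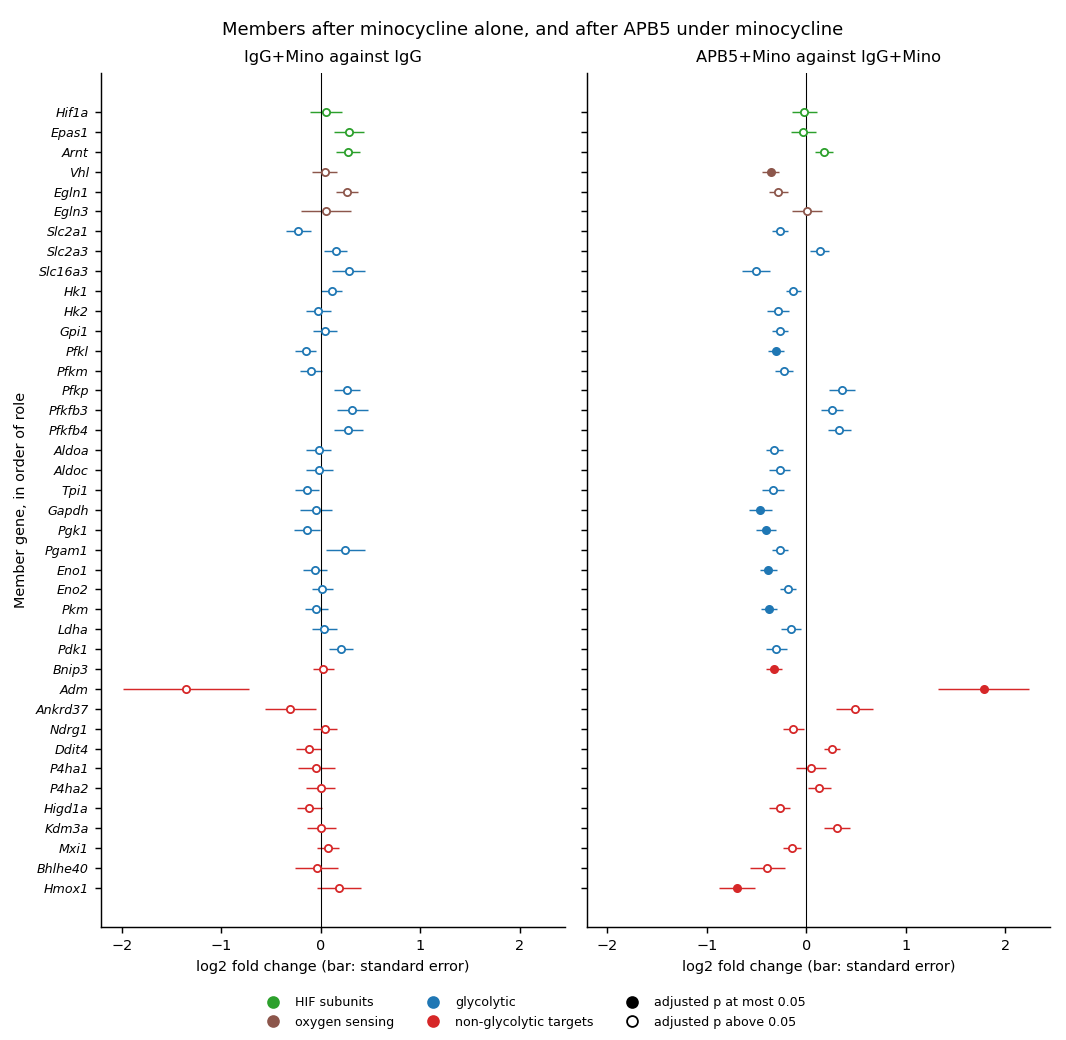
Log2 fold change of each tested member (points; bars, SE; colour, role) in IgG+Mino against IgG (left) and APB5+Mino against IgG+Mino (right), with filled points for adjusted p at most 0.05. The left panel has no filled point, whereas the right panel has 8 filled points below 0 and Adm at 1.78.

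Among the other members called, Adm had 11, 7 and 8 counts in IgG+Mino and 56, 23 and 23 counts in APB5+Mino. This was a 3.44-fold higher level (log2 fold change 1.78 ± 0.46, adjusted p = 0.0368) with no overlap but at 1.00 CPM at most. The APB5+Mino levels of Adm, at 1.00, 0.449 and 0.433 CPM, overlapped with those of IgG without minocycline, at 0.105, 0.650 and 0.622 CPM. Vhl was at 48.3, 45.6 and 48.7 CPM and then 38.5, 35.8 and 37.2 CPM (-0.36 ± 0.08, adjusted p = 0.0367). Bnip3 was at 122, 118 and 125 CPM and then 104, 98.1 and 90.2 CPM (-0.33 ± 0.08, adjusted p = 0.0449). Hmox1 was at 6.97, 6.32 and 9.81 CPM and then 4.45, 4.72 and 5.10 CPM (-0.70 ± 0.18, adjusted p = 0.0495). Thus 3 of the 4 were lower in every APB5+Mino library and only Adm was higher. Of 8 rod markers 2 were called lower, with a summed level of 59966 to 63985 CPM in IgG+Mino and 47496 to 50814 CPM in APB5+Mino, and 4 of 8 microglia markers were called lower, with sums of 26.1 to 29.5 and 14.5 to 16.8 CPM. All 6 Mueller glia markers were lower and Rlbp1 was called, with sums of 3864 to 4117 CPM and then 3270 to 3436 CPM. All 5 cone markers were lower and Pde6h was called, with sums of 1073 to 1310 and 1047 to 1067 CPM. Of the 6 endothelial markers 4 were lower and Cldn5 was called, and of the 4 astrocyte and gliosis markers all were lower and Gfap was called. The 5 red blood cell markers were all lower and 0 were called, with sums of 172 to 203 and 110 to 169 CPM. Of them 4 had an unadjusted p below 0.05, as had 2934 of all 20049 genes in that direction. The part of these cell type markers in the members' values was not tested.

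These calls were sensitive to the libraries used. Without IgG+Mino replicate 1 there were 18, beside 16.4% of 20477 genes, and without APB5+Mino replicate 1 there was 1, beside 2.82% of 20478 genes. Without IgG+Mino replicate 3 there were 0 (5 genes in all), and without APB5+Mino replicate 2 or 3 there were 0 as well (0 and 2 genes in all). Leaving out APB5+Mino replicate 3 leaves only libraries with low Xist. With all 12 libraries in 1 fit, 0 members and 0 genes in all were called, and so it was with log2 CPM of Xist as a covariate. Both fits take in APB5 replicate 3, and its part in the loss of calls was not tested. The direction of each of the 9 held in every one of these fits.

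No difference between the effect of minocycline after APB5 and after IgG was called among the members. The effect after IgG sets libraries of low Xist against libraries of high Xist. Sex and minocycline therefore cannot be told apart in it, nor in this difference. The interaction of antibody and minocycline passed the test for 0 of 40 members with edgeR, beside 0.0141% of the 21228 genes tested. An unadjusted p below 0.05 was reached by 11 members, beside 1712 genes with positive and 1928 with negative values. DESeq2 called Hmox1 and Bnip3, beside 4.03% of 17790 genes. The smallest p was that of Hmox1, whose minocycline effect was 0.18 ± 0.22 in IgG retinas and -2.54 ± 0.54 in APB5 retinas, a difference of -2.71 ± 0.60 (adjusted p = 0.131). It was -1.85 without APB5 replicate 3 (adjusted p = 0.0312). Next came Bnip3 at -0.55 ± 0.15 (adjusted p = 0.159), Vhl at -0.47 ± 0.16 (adjusted p = 0.203) and Pdk1 at -0.44 ± 0.15 (adjusted p = 0.203). Pdk1 was at 48.8, 45.0 and 43.7 CPM in IgG, 47.2, 54.4 and 55.5 in IgG+Mino, 52.5, 49.6 and 49.3 in APB5 and 40.6, 47.6 and 39.5 in APB5+Mino. All APB5 libraries lay above all APB5+Mino libraries, while IgG overlapped with the latter.

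The contrast between glycolytic members and non-glycolytic HIF targets was followed library by library, as the median over each list of log2 CPM minus the IgG mean. The glycolytic median less the non-glycolytic median was 0.00061, -0.056 and 0.079 in the IgG libraries and 0.15, -0.011 and 0.035 in the IgG+Mino libraries. It was -0.21, -0.21 and -0.15 in the APB5 libraries and -0.27, -0.16 and -0.26 in the APB5+Mino libraries. All 6 libraries of APB5-treated mice thus lay below all 6 of IgG-treated mice, with or without minocycline and with high or low Xist, and APB5 replicate 3 did not stand out in this measure. In APB5 the non-glycolytic median was above the IgG mean (0.25, 0.040 and 0.23) and the glycolytic median varied around it (0.041, -0.17 and 0.078), whereas in APB5+Mino the glycolytic median was below it (-0.16, -0.24 and -0.34) and the non-glycolytic one near it (0.11, -0.082 and -0.081). Taken from the fits, the difference between the medians of the log2 fold changes was -0.20 for APB5 against IgG and -0.23 for APB5+Mino against IgG+Mino, but 0.11 for APB5+Mino against APB5 and 0.023 for IgG+Mino against IgG. The members were chosen with results of these data known, and no p is given for these scores.

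**Figure D5:**
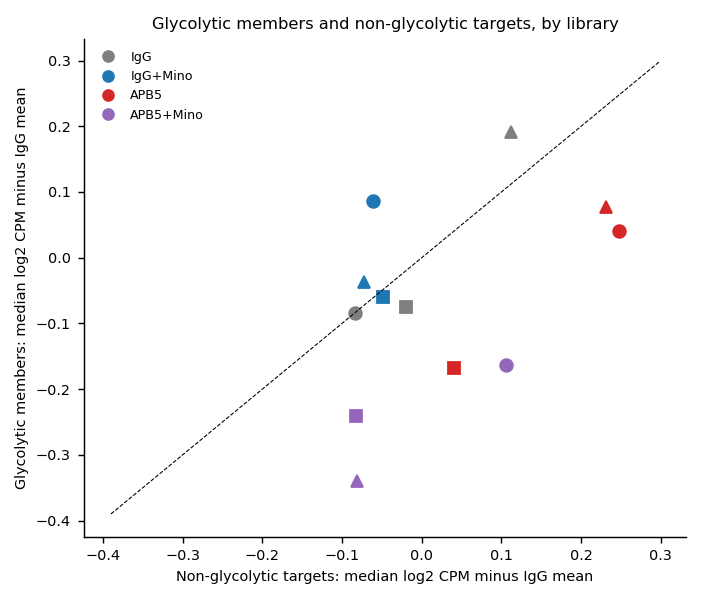
Median log2 CPM minus the IgG mean over the glycolytic members (vertical axis) against that over the non-glycolytic targets tested (horizontal axis), 1 point per library (colour, group; circle, square and triangle, replicates 1, 2 and 3; dashed line, equal values). The 6 libraries of APB5-treated mice lie 0.15 to 0.27 below the line.

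Further genes of both pathways were read for context. Of 24 other HIF pathway genes, 23 were tested. None was called in APB5 against IgG with edgeR, where their median was 0.37, and none in IgG+Mino against IgG. In the former 9 had an unadjusted p below 0.05, beside 1063 genes higher and 409 lower of 20350. In the latter 0 had one, beside 1004 genes higher and 682 lower of 20143. Ndufa4l2 and Cox4i2 are mitochondrial subunits that are HIF-responsive and are also abundant in pericytes. In APB5+Mino against APB5 both were called lower and Tfrc, the transferrin receptor, was called higher, beside 4.82% of the 20281 genes tested. None of these calls held under the replicate block (adjusted p = 0.0641 for each). Ndufa4l2 was at 2.17, 2.48 and 5.36 CPM in IgG, at 13.4, 10.3 and 12.3 CPM in APB5 and at 1.96, 1.44 and 1.73 CPM in APB5+Mino (log2 fold change of the latter pair -2.79 ± 0.20, adjusted p = 0.0203). Unlike Adm or Hmox1, it was evenly high in all 3 APB5 libraries. Of the 6 markers of pericytes and smooth muscle, all were lower in that comparison and Rgs5 was called (-1.36 ± 0.26, adjusted p = 0.0461, and 0.0641 under the replicate block), and their part in the Ndufa4l2 value was not tested.

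In APB5+Mino against IgG+Mino, 4 of the 23 other HIF pathway genes tested were called higher and 2 lower. Of all 20049 genes tested, 4.8% were called higher and 3.28% lower. Hif3a, a HIF-α paralog that can restrain the response, was at 10.8, 10.9 and 10.5 CPM in IgG+Mino and at 17.5, 22.1 and 23.7 CPM in APB5+Mino (0.97 ± 0.13, adjusted p = 0.0125), a clear separation. Plod2, a collagen lysyl hydroxylase, rose by 0.55 ± 0.10 on the log2 scale and Hif1an, the asparaginyl hydroxylase that blocks HIF-α activation, by 0.35 ± 0.07, while Cox4i2 changed by -0.73 ± 0.15. Of 30 other glucose, pyruvate and lactate genes, 27 were tested and none was called higher in any comparison. In APB5 against IgG 16 of them had positive values and 11 negative ones, and 0 were called. In APB5+Mino against APB5 2 were called lower, where 4.82% of all genes were called in either direction. In APB5+Mino against IgG+Mino 3 were called lower, where 8.09% of all genes were called. Bpgm, which makes 2,3-bisphosphoglycerate, fell in APB5+Mino against APB5 (-0.55 ± 0.11, adjusted p = 0.0471) and against IgG+Mino (-0.46 ± 0.10, adjusted p = 0.0345), and so did Mpc2, a mitochondrial pyruvate carrier subunit (-0.74 ± 0.14, adjusted p = 0.0461, and -0.54 ± 0.14, adjusted p = 0.0454). Under the replicate block both calls of the first comparison were lost (adjusted p = 0.0641). These comparisons share the 3 APB5+Mino libraries. Txnip, an arrestin-like protein that limits glucose uptake, fell in APB5+Mino against IgG+Mino (-0.67 ± 0.12, adjusted p = 0.0185), from 28.5, 35.1 and 30.7 CPM to 19.2, 18.2 and 21.9 CPM.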

How the data were processed

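RNA was measured in 12 mouse retinal libraries, 3 per group, from stranded poly-A preparations. Per the labels and the submitters' processing notes, reads were made with bcl2fastq 2.20 and aligned by the authors with the DRAGEN RNA pipeline to mm39 with NCBI annotation. The pipeline's version, its use of strand and its treatment of reads with several matches are not given in the sources used here. Each value used is a count of reads per gene as deposited by the authors, with no normalization. Another deposited table repeats these counts. The table's 3 repeated columns were identical to those they repeat and were not used. The deposited result tables hold the authors' own log2 fold changes and p-values and were not used.

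Counts were tested with edgeR 4.0.16 in R 4.3.3 (filterByExpr, TMM, quasi-likelihood F-test without robust estimation, prior count 2, two-sided), with Benjamini-Hochberg adjustment over all genes tested and only the 2 groups compared in each fit, or all 12 libraries for the interaction. Calls were made at adjusted p of at most 0.05, whatever the fold. The scripts were tested on simulated data. CPM were computed here. SD and SE are given with n = 3 libraries per group, and an exact permutation test of 3 against 3 could not go below p = 0.1. Library totals of 52740545 to 59411044 counts make 3 counts equal to 0.0456 to 0.0585 CPM, and this floor covers counting error only.

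The members and gene lists were chosen with earlier results of these data known. Members given library by library were those called in a comparison (at most 8 per direction with the smallest p) or, with fewer than 4 called, the 4 with the smallest p. Members mentioned beyond these were chosen after their values were seen. Groups were taken from the labels, which give no meaning to replicate numbers. For APB5+Mino against APB5, within-group deviations of log2 CPM had correlations of 0.134 to 0.182 between the 3 pairs with equal numbers. The 6 other pairs had -0.157 to 0.0194, so the numbers were taken to pair these libraries. In both groups replicates 1 and 2 had low Xist and replicate 3 high Xist, and the part of this in the correlations was not tested. Pairs with unequal numbers reached 0.206 in APB5 against IgG and 0.200 in IgG+Mino against IgG, so values of this size also occur between unlike numbers. Gene positions and transcripts are GENCODE vM39 (GRCm39), and promoters are RefSeq's (GRCm38.p6). Alternatives were RLE factors, library size only, DESeq2 1.42.0, no count filter, a log2 fold change of at least 1, all 12 libraries in a fit, the replicate block, Xist as a covariate and each library left out.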

Additional observations from a re-analysis of the deposited data

How the results depend on the processing

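Over all alternatives, no member given library by library passed the threshold in the direction opposite to its main value. Of the counts of members called, that for APB5 against IgG went from 0 to 2 with DESeq2 (0.485% of all genes tested) and to 5 with the Xist covariate (6.98%). For APB5+Mino against APB5 it went from 2 to 1 with a log2 fold change of at least 1, to 0 by library size only and with the replicate block (0 genes in all), to 14 with DESeq2 (27% of all genes), to 14 with the Xist covariate (26.3%), to 13 with all 12 libraries in a fit (21%) and to 5 in the libraries with low Xist (9.36%), and from 0 to 14 with a library left out (at most 26.6%). For APB5+Mino against IgG+Mino it went from 9 to 1 with that fold limit, to 4 by library size only (7.86%), to 17 with DESeq2 (20.4%), to 0 with the Xist covariate and with all 12 libraries, and from 0 to 18 with a library left out (at most 16.4%). For the interaction it went from 0 to 2 with DESeq2 (4.03%), to 1 without a count filter (0.0969%), to 2 with the Xist covariate (4.69%) and to 0 to 1 with a library left out. The difference between glycolytic and non-glycolytic medians ranged with a library left out from -0.23 to -0.14 for APB5 against IgG (the latter without IgG replicate 3) and from -0.037 to 0.13 for IgG+Mino against IgG, where the sign depended on the library, and that of the interaction was 0.073 with the Xist covariate. The 67 other values of these medians moved by less than 1 SD between replicates (0.0629). The cause of these shifts was not tested.

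Same-numbered libraries correlated by -0.032 to 0.14 for APB5 against IgG, by -0.15 to 0.063 for IgG+Mino against IgG and by -0.024 to 0.20 for APB5+Mino against IgG+Mino, where 3, 2 and 3 of 6 libraries correlated best with their own number. With the replicate block 0, 0 and 22 members were called in these comparisons, the last beside 20.2% of all genes, and 0 in the interaction. Depth did not limit the abundant enzymes, whereas Adm, at 6 to 37 counts per IgG library, and Car9, at 0 to 15 counts per library, were near or at the limit of what could be compared.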
